A study of Homo sapiens with 4 samples.

Results

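CTCF is a zinc-finger protein that binds DNA and, together with cohesin, holds the anchors of many chromatin loops. Most of its sites lie close to other sites, in gene-rich chromatin, whereas long gene-poor stretches hold few. CTCF regions that stood alone are described here, and how many genes lie around them was not analysed: of 13959 regions with a CTCF peak, 777 (5.57%) had no other region of the same chromosome within 300 kb on either side, edge to edge. They were chosen by the positions of the called peaks. The intervals of all 4 peak lists on chromosomes 1 to 22 and X were merged where they shared at least 1 bp, and the distance to the nearest merged region was taken. Distances are therefore fixed by the choice and are given as a description.

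The peaks come from chromatin immunoprecipitation followed by sequencing (ChIP-seq) of CTCF in K562, an established human erythroleukaemia line. Cells received 10 µM aclarubicin (2 biological replicates) or 10 µM daunorubicin (2 biological replicates), each for 4 hours. Both drugs are anthracyclines, which slide between the bases of DNA. Daunorubicin in addition traps topoisomerase II on broken DNA, and aclarubicin is known for evicting histones without such breaks. Untreated cells were not analysed here, and every comparison sets one drug against the other. Nothing in the labels says which cultures were shared. The p-values rest on these libraries alone, which share many regions. They reach their smallest value whenever the drugs do not overlap, or all 4 libraries agree in sign, whatever the size of the gap. Peak lists hold no expression values, so the cell line could not be checked against marker genes.

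On the chromosomes used, the lists held 10632 and 10710 peaks under aclarubicin and 5883 and 6637 under daunorubicin (replicates 1 and 2). Read totals are not in the files. The number of fragments over each summit and its background were solved from the deposited fold and −log10 p. The depth of a library was taken as the lowest background in its list per base of the shortest peak, and relative to aclarubicin replicate 1 it was 1.04 (aclarubicin replicate 2), 0.997 (daunorubicin replicate 1) and 0.814 (daunorubicin replicate 2). Coordinates are those of the lists, 1-based, in GRCh37 (hg19) per the submitters' processing notes. No genome or gene annotation of that build was used here, so neither sequences nor genes at the regions are given.

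The isolated regions were spread unevenly over the chromosomes. On chromosome X, 52 of 275 regions (18.9%) were isolated, and on chromosome 13, 30 of 164 (18.3%). Chromosomes 4, 18 and 8 followed with 13.5%, 12.6% and 11.9%. At the other end stood chromosome 19, which is known for its dense genes, with 4 of 1006 (0.398%), chromosome 22 with 5 of 479 (1.04%) and chromosome 17 with 15 of 846 (1.77%). In number, chromosome 2 held most of them, at 72.

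**Figure D1:**
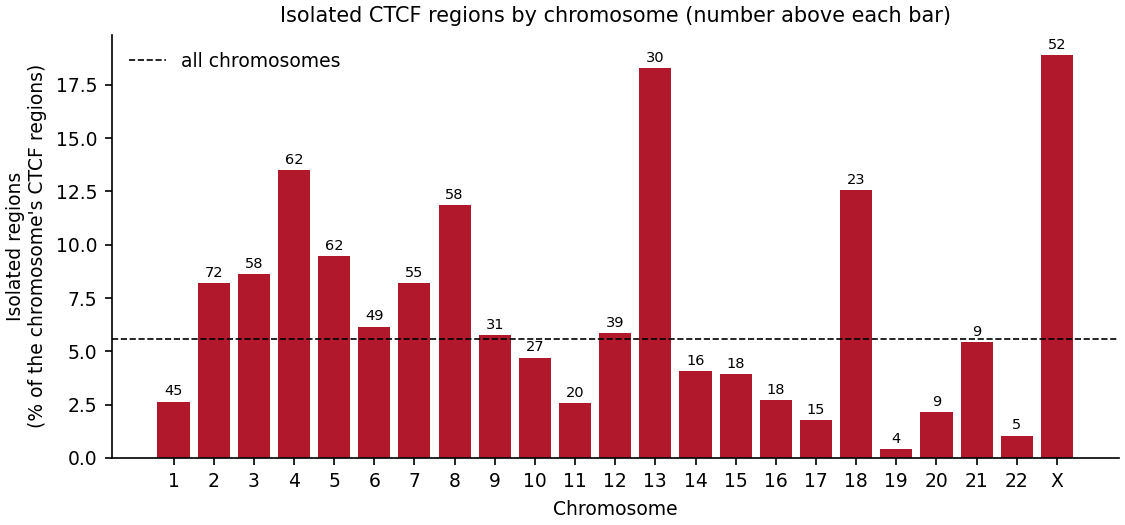
Share of each chromosome's merged CTCF regions that were isolated (vertical axis, percent), with the number of isolated regions above each bar and the share over all chromosomes (5.57%) as a dashed line. Chromosomes X and 13 stand highest at 18.9% and 18.3%, and chromosome 19 lowest at 0.398%.

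The nearest region lay 489 kb away in the median, with quartiles of 369 and 735 kb and a maximum of 4342 kb, against a median of 26.6 kb over all regions. In all, 401 isolated regions had their neighbour at 300 to 500 kb, 279 at 500 to 1000 kb and 97 beyond 1000 kb. Some isolated regions stood in chains, as the rule favours, since neighbours share the free stretch between them. For 516 of the 777 (66.4%) the next region on at least 1 side was itself isolated, and for 144 this held on both sides. The longest chain had 10 isolated regions in a row, on chromosome X between 25039012 and 39673959, a span of 14.6 Mb. Of these 10, aclarubicin replicates 1 and 2 called 6 and 7, daunorubicin replicates 1 and 2 called 4 and 5, and 3 were called in all 4 libraries. A chain of 7 on chromosome 8, between 105342087 and 109716343, had a different make-up. Each of the first 3 libraries called 1 of its regions, daunorubicin replicate 2 called 6, and 5 of the 7 were called in a single library. A chain of 6 on chromosome 9, between 7234149 and 16134123, was called whole in both aclarubicin libraries, whereas daunorubicin replicates 1 and 2 called 3 and 1 of its regions. These chains were picked for their length after their values had been seen. At the edges, 9 isolated regions were the first of their chromosome and 0 the last, and 23 of the 46 regions that border the longest gap of a chromosome were isolated. The rule favours such places too, since 1 side is free beforehand.

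Regions just inside and just outside the limit show what the rule separates. The 2 nearest above it were chrX:69353053-69353500, whose neighbour lay 300.16 kb away and which was called in all 4 libraries with folds of 9.56, 10.5, 4.51 and 9.17, and chr8:101271138-101271477, at 300.24 kb, called in the aclarubicin libraries with folds of 9.13 and 9.09. The 2 nearest below were chr5:78852099-78852359, at 299.92 kb, called in daunorubicin replicate 2 with a fold of 6.98, and chr20:23967904-23968181, at 299.88 kb, called in aclarubicin replicate 1 with a fold of 8.0.

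Isolated regions were called in fewer libraries than the rest. Of the 777, 172 (22.1%, 95% Wilson interval 19.4% to 25.2%) were called in all 4 libraries, against 29.5% of all merged regions. A single library accounted for 293 of them (37.7%, 34.4% to 41.2%), against 28.7% of all regions. Intervals cover counting error only and treat regions as independent, which neighbours in a chain are not. Regions are no replicates, so no test was made of these shares.

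By drug, 149 isolated regions (19.2%, 16.6% to 22.1%) were called in both aclarubicin libraries and in neither daunorubicin library, where 23.8% of all regions were. The reverse pattern, both daunorubicin libraries and neither aclarubicin library, held for 23 (2.96%, 1.98% to 4.40%), where 3.17% of all regions had it. The latter share was thus close to the background. Calls made in a single library were not evenly divided. Aclarubicin replicates 1 and 2 alone called 103 (13.3%) and 83 (10.7%) isolated regions, against 10.8% and 10.7% of all regions. Daunorubicin replicate 1 alone called 29 (3.73%), against 2.77%. Daunorubicin replicate 2 alone called 78 (10.0%, 8.12% to 12.4%), against 4.48%. This replicate stood apart from the other daunorubicin library and was also the shallowest of the 4, whose part in the result was not tested. Without it, 771 regions were isolated, and 276 of them were called in a single library. The 78 lay mostly on chromosomes 4 and 8 (11 each), 5 (7) and 3, 7, 13 and X (6 each). Of all isolated regions, chromosomes 4, 8 and 5 held 62, 58 and 62, and chromosomes 3, 7, 13 and X held 58, 55, 30 and 52. Whether the 78 were spread over the chromosomes differently from other isolated regions was not tested. The 78 were faint peaks, with a median fold of 7.20, a median −log10 q of 10.1 and a median of 18 fragments over the summit.

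**Figure D2:**
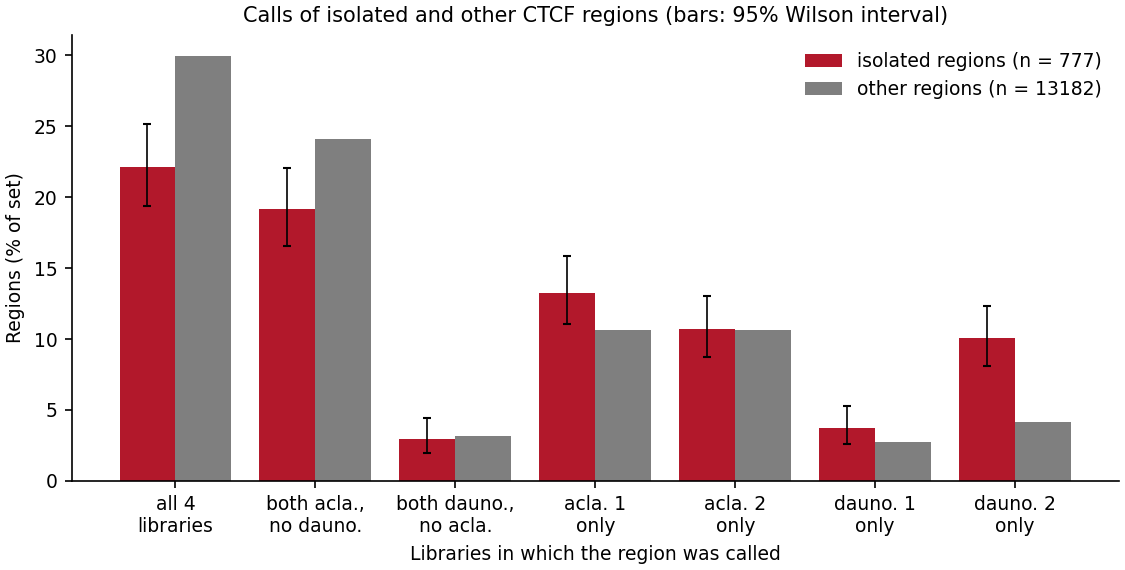
Share of the 777 isolated regions (red, with 95% Wilson intervals) and of the 13182 other regions (grey) called in the libraries named on the horizontal axis (acla., aclarubicin; dauno., daunorubicin). The isolated regions show the lower share in all 4 libraries (22.1%) and the higher share for daunorubicin replicate 2 alone (10.0%).

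Counted by library, aclarubicin replicates 1 and 2 called 536 and 521 isolated regions (69.0% and 67.1% of the 777), where 76.1% and 76.7% of all regions were called. Daunorubicin replicates 1 and 2 called 283 and 376 (36.4% and 48.4%), against 42.1% and 47.5% of all regions. The drugs did not overlap. The aclarubicin libraries averaged 529 ± 10.6 isolated regions (SD, n = 2) and the daunorubicin libraries 330 ± 65.8 (SD, n = 2), which is 1.60 times fewer. In log2 units the difference was 0.70 and the pooled SD 0.21 (exact two-sided permutation p = 0.333, the smallest that 2 against 2 libraries allow). Other regions showed a 1.71-fold difference. Per 100 other regions called in the same library, isolated regions numbered 5.31 and 5.12 under aclarubicin and 5.06 and 6.01 under daunorubicin. Here the drugs overlapped (log2 difference -0.08, pooled SD 0.13, exact permutation p = 1). With lists cut to equal length they did not overlap, with a log2 difference of -0.36 per 100 other regions (exact permutation p = 0.333). In the number itself it was -0.32, the daunorubicin libraries having more isolated regions. Lists of equal length kept the 5883 peaks of each library with the highest −log10 p, a measure by which isolated peaks ranked below others in the whole lists. The part of this cut in the differences found with such lists was not tested.

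Where isolated regions were called, their peaks had a higher fold but fewer fragments. Fold is the enrichment of the summit over the background that the authors' peak caller assigned to it. The median isolated peak had a fold of 8.77 and 8.82 in the aclarubicin lists and of 8.07 and 8.47 in the daunorubicin lists. Other peaks of the same lists had medians of 7.46, 7.36, 7.20 and 7.77. Isolated peaks thus had the higher fold in 4 of 4 libraries, by 1.09 ± 0.358 (SD over 4 libraries; exact sign-flip permutation p = 0.13, the smallest that 4 libraries allow). Single values ranged from 3.30 to 27.8 in aclarubicin replicate 1 and from 3.93 to 27.6 in daunorubicin replicate 2. In rank, the median isolated peak stood at the 62.2, 63.5, 62.2 and 58.9 percentile of fold in the 4 lists.

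The fragment numbers went the other way. The median isolated peak had 26 and 28 fragments over its summit under aclarubicin and 24 and 23 under daunorubicin. Other peaks had 46 and 48, and 37 and 34. Isolated peaks had fewer in 4 of 4 libraries, by 16 ± 4.69 (exact sign-flip p = 0.13). By −log10 p, which weighs the number of fragments as well as the ratio, the median isolated peak fell at the 40.4, 40.3, 37.8 and 38.5 percentile of its list, below the middle. Whether isolated peaks rank as strong or weak therefore depends on the measure: 12.5 percentile points above other peaks by fold, and 11.5 below by −log10 p.

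The background separates these measures. As solved from fold and −log10 p, its median at isolated peaks was 1.19 and 1.20 times the lowest background of the list under aclarubicin, and 1.31 and 1.31 times under daunorubicin. At other peaks it was 3.40 and 3.37 times, and 2.63 and 2.70 times. In 35.6% and 32.4% of isolated aclarubicin peaks and 19.4% and 21.5% of isolated daunorubicin peaks the background was at the lowest value of the list, within 0.5%. Among other peaks that share was 5.07%, 3.70%, 2.11% and 2.51%. The gap in background between isolated and other peaks was wider under aclarubicin (2.20 multiples) than under daunorubicin (1.35 multiples), by 0.84 with a pooled SD of 0.04 (exact permutation p = 0.333).

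Peaks at isolated regions were also narrower. Their median width was 330 and 343 bp under aclarubicin and 289 and 303 bp under daunorubicin, against 371, 384, 321 and 329 bp at other peaks. This was 35.3 ± 7.29 bp less (SD over 4 libraries; lower in 4 of 4; exact sign-flip p = 0.13). Isolated peaks under aclarubicin exceeded those under daunorubicin by 40.5 bp in width (pooled SD 9.55 bp, exact two-sided permutation p = 0.333). With lists of equal length that difference was 97.8 bp. In the whole lists, other peaks differed more between the drugs, by a further 12 bp (pooled SD 2.76 bp, exact permutation p = 0.333). The shortest peaks of the lists were 241 and 249 bp under aclarubicin and 232 and 233 bp under daunorubicin, whose part in these differences was not tested.

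**Figure D3:**
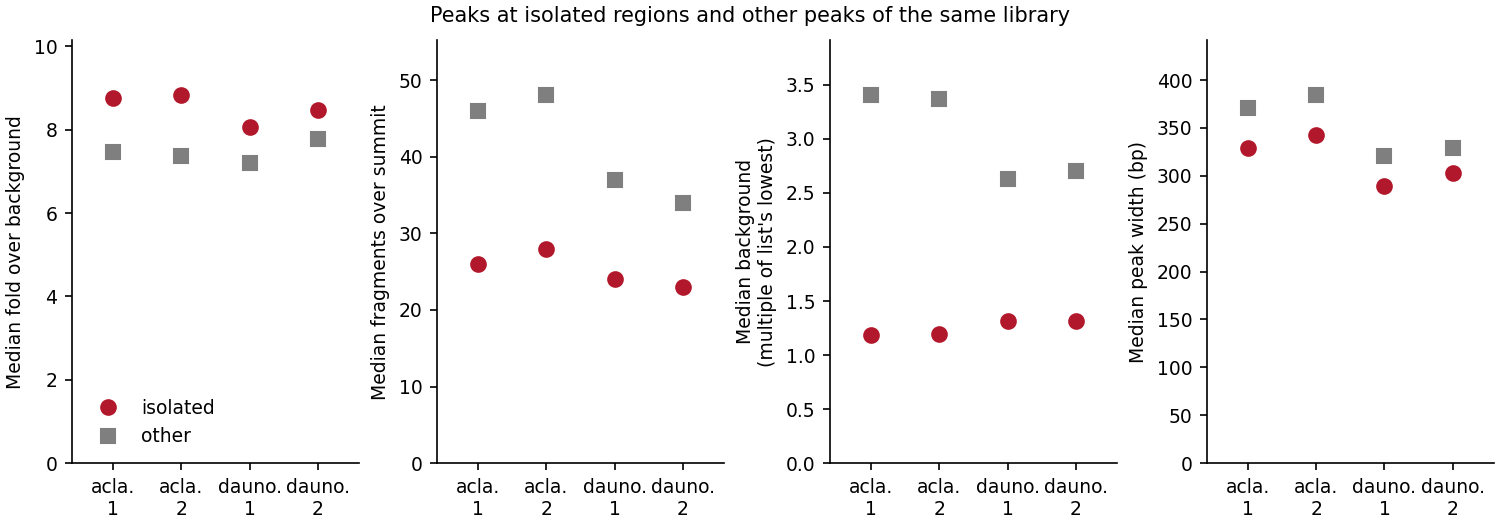
Medians in each library (horizontal axis; acla., aclarubicin; dauno., daunorubicin; replicate number below) of fold, fragments over the summit, background as a multiple of the lowest in the list, and peak width in bp. Isolated regions (red circles) lie above other peaks of the same library (grey squares) in fold and below them in the other 3 panels, in all 4 libraries.

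Isolated regions called in all 4 libraries had the strongest peaks and those of a single library the faintest. The classes favour this order, since a faint peak is more easily missed in another list. Other regions were not split in the same way. The 172 called in all 4 libraries had median folds of 11.4 and 11.2 in the aclarubicin lists and of 8.68 and 10.0 in the daunorubicin lists, and were 386, 389, 305 and 337 bp wide. The 149 called in both aclarubicin libraries alone had folds of 8.43 and 8.27 and 26 and 27 fragments. For the 23 called in both daunorubicin libraries alone the folds were 8.27 and 8.59, with 24 fragments in each. Regions of a single library were the faintest, with median folds of 5.86, 6.24, 6.41 and 7.20 and 17 to 19 fragments. Of these single-library peaks, 55.3% and 44.6% (aclarubicin) and 20.7% and 46.2% (daunorubicin) were at the lowest background.

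The most extreme distances changed these shares further. Beyond 1000 kb, 13 of 97 regions (13.4%) were called in all 4 libraries and 46 (47.4%) in 1. At 300 to 500 kb the shares were 24.4% and 34.7%, and at 10 to 50 kb, over 5389 regions that were not isolated, 32.6% and 26.4%. Regions under 2 kb from their neighbour departed from this order, with 25.4% and 34.3%. Calls in daunorubicin replicate 2 alone made up 3.38% at 10 to 50 kb, 5.01% at 50 to 100 kb and 6.67% at 100 to 300 kb. They made up 7.98% at 300 to 500 kb, 11.1% at 500 to 1000 kb and 15.5% beyond. Regions at 100 to 300 kb, which were not isolated, had median folds of 8.37, 8.38, 7.80 and 8.20 in the 4 lists. At 300 to 500 kb these were 8.74, 8.59, 8.10 and 8.42. Median backgrounds were 1.72, 1.77, 1.73 and 1.72 times the lowest, and 1.26, 1.26, 1.34 and 1.37. Fold thus rose and background fell with distance already among regions that were not isolated. The background was lowest in the loneliest regions, with a median beyond 1000 kb of 1.00, 1.00, 1.09 and 1.04 times the lowest of the list. Across isolated peaks of a library, distance and background had Spearman's rho between -0.158 and -0.231 (n = 283 to 536 peaks of 1 library, which share its depth), and distance and fold between 0.003 and 0.111.

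**Figure D4:**
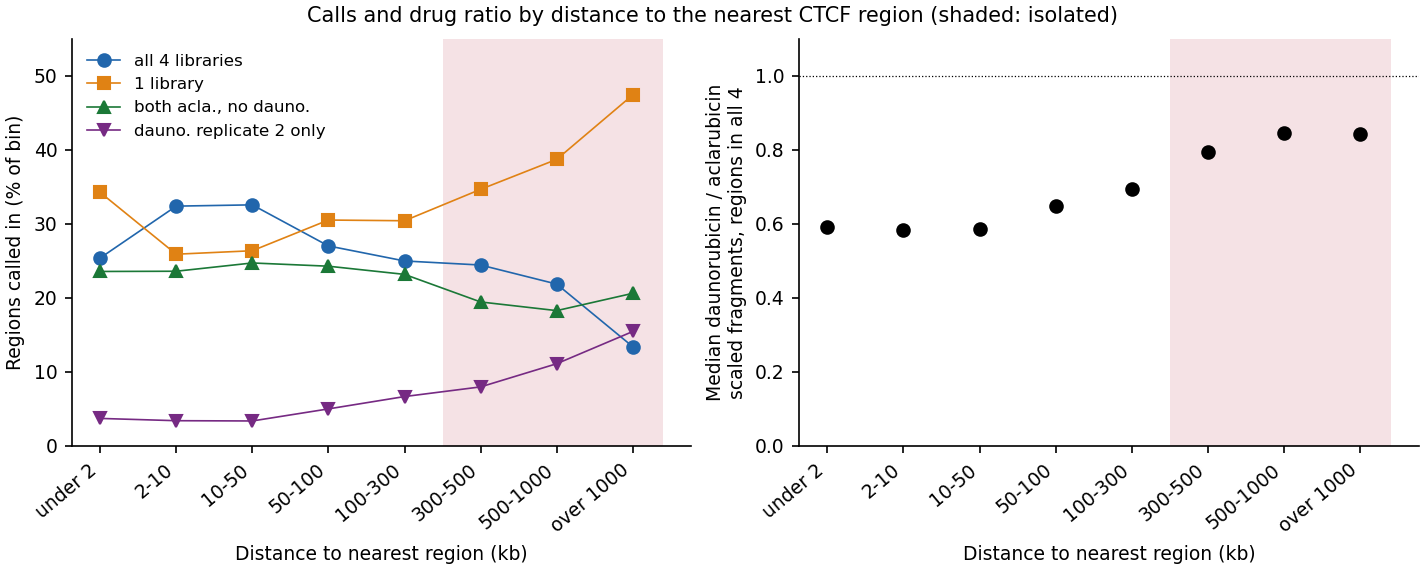
Left, percent of merged regions called in all 4 libraries, in 1 library, in both aclarubicin and neither daunorubicin libraries, and in daunorubicin replicate 2 alone, by distance to the nearest region in kb. Right, median ratio of daunorubicin to aclarubicin fragments at regions called in all 4 libraries. The shaded bins hold the isolated regions: calls in 1 library reach 47.4% beyond 1000 kb, and the ratio there is 0.843 (13 regions).

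The share of isolated peaks found again in another library was compared with that of other peaks. Of the isolated peaks of aclarubicin replicate 1, 76.5% were overlapped in aclarubicin replicate 2, 39.6% in daunorubicin replicate 1 and 47.8% in daunorubicin replicate 2. Other peaks of that list were overlapped in 83.4%, 45.3% and 49.7%. From daunorubicin replicate 2, the isolated peaks were found again in 57.7% (daunorubicin replicate 1), 68.1% and 67.8% (aclarubicin), against 74.4%, 80.1% and 80.9% of other peaks.

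Set against other peaks in the same decile of fold, isolated aclarubicin peaks were found less often under daunorubicin, by 10.7 to 14.0 percentage points over the 4 pairs of libraries, and less often in the other aclarubicin replicate, by 13.6 and 11.9 points. Both kinds of pair gave like values. In deciles of −log10 p the picture differed: isolated aclarubicin peaks were found more often under daunorubicin, by 4.93 to 8.26 points, and less often in the replicate, by 2.14 and 1.20 points. Isolated daunorubicin peaks were found less often in each comparison, by 10.7 to 16.1 points (fold) or 3.56 to 8.98 points (−log10 p) under aclarubicin. In the other daunorubicin replicate they were found less often by 12.5 and 21.5 points (fold) or 2.96 and 9.77 points (−log10 p). The pairs share libraries, so they are described and not tested.

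At the 172 isolated regions called in all 4 libraries, fragments can be compared. Scaled by the relative depth recovered from the background, which is 1 of several possible scalings, their median was 39 and 39.8 fragments in the aclarubicin libraries and 29.6 and 36.9 in the daunorubicin libraries. The 3949 other regions called in all 4 had 78 and 79.7, and 42.1 and 52.8. The drugs did not overlap in either set. The log2 difference, aclarubicin minus daunorubicin, was 0.26 at isolated regions and 0.74 at other regions, with pooled SDs of 0.16 (exact permutation p = 0.333 for each). That at isolated regions was 0.10 without daunorubicin replicate 1, 0.51 without daunorubicin replicate 2 and 0.17 without aclarubicin replicate 1, and with lists of equal length it was 0.47. It was 0.16 with isolation set at 500 kb and 0.02 at 1000 kb (13 regions, exact permutation p = 1), and it turned to -0.46 when the medians of all shared regions were set equal, so its direction rests on the recovered depth.

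Region by region, the ratio of daunorubicin to aclarubicin fragments had a median of 0.835 at isolated regions, with quartiles of 0.631 and 1.05, and of 0.615 over all 4121 shared regions. Among shared regions that were not isolated, it was 0.587 at 10 to 50 kb from the nearest region and 0.695 at 100 to 300 kb. The ratio exceeded 1 in 52 of 172 isolated regions (30.2%) and in 14.5% of all shared regions, and with medians set equal in 132 (76.7%) and 50.7%. Both daunorubicin libraries lay below both aclarubicin libraries in 78 isolated regions (45.3%, 95% Wilson interval 38.1% to 52.8%), against 71.6% of all shared regions. They lay above in 23 (13.4%, 9.08% to 19.3%), against 7.11%. With medians set equal, they lay below in 20 isolated regions (11.6%), against 34.8% of all shared regions, and above in 97 (56.4%), against 35%. The number in each direction thus turned with the scaling, whereas under both scalings a smaller share of isolated than of all shared regions had daunorubicin below. The difference between isolated and other regions, in the medians on the log2 scale, was -0.49 (aclarubicin minus daunorubicin). It was -0.38 to -0.53 with each library left out in turn. Setting medians equal shifts both sets of a library alike, so it leaves this value unchanged by construction. The scaled background was 7.35, 7.58, 4.69 and 5.24 fragments at other shared regions and 2.36, 2.49, 2.39 and 2.53 at isolated ones, whose likeness between libraries the scaling by the lowest background largely fixes.

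Fewer fragments went with a smaller drug difference among regions that were not isolated too: their median log2 ratio, daunorubicin to aclarubicin, was -0.17 in the lowest decile of the mean fragment number and -0.95 in the highest. Within these deciles, which were added with the values already known, the daunorubicin to aclarubicin log2 ratio at isolated regions exceeded that at other regions by 0.15 (0.12 to 0.19 over the 4 pairs of libraries). In the lowest decile, with 71 isolated and 342 other regions, the median log2 ratios were -0.10 and -0.17. In the second, with 28 and 384, they were -0.26 and -0.39, and in the third, with 21 and 391, -0.43 and -0.49. These 3 deciles, which hold most of the isolated regions, gave differences of 0.07, 0.12 and 0.07. Each higher decile held 2 to 14 isolated regions, with differences from -0.04 to 0.81 and below 0 in the fifth and the seventh, so the value of 0.15 leans on thinly filled deciles. A region in all 4 lists has passed the calling threshold in each, and how far this limits the ratio of faint regions was not tested. By fold, which divides by the background, the ratio was 0.824 at both isolated and other regions.

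**Figure D5:**
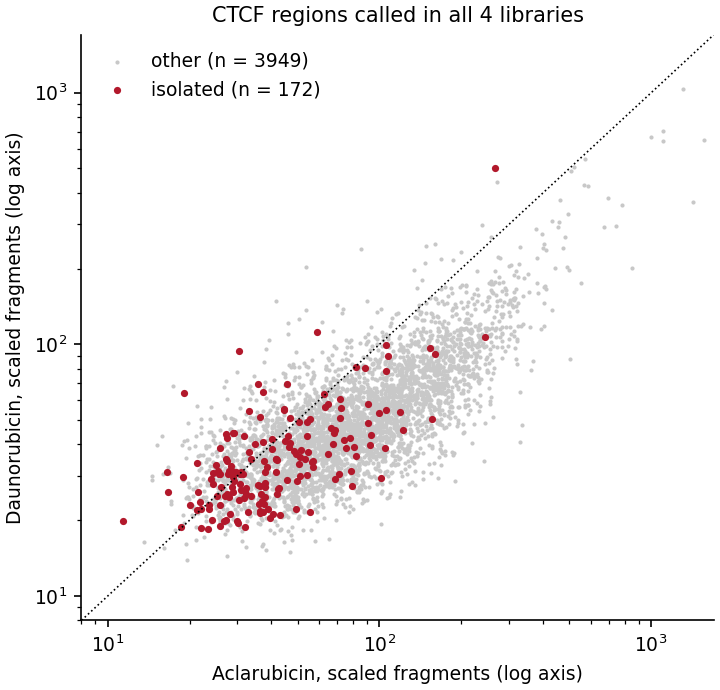
Mean scaled fragments (geometric mean of 2 libraries) under aclarubicin and daunorubicin at the regions called in all 4 libraries, both axes logarithmic, with the line of equal values dotted. Isolated regions (red, n = 172) lie at the lower end and, under this scaling, nearer to the line than other regions (grey, n = 3949), with median ratios of 0.835 and 0.607.

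Among isolated regions called in all 4 libraries, the highest mean percentile was at chr7:61968781-61969624, which borders an empty stretch of 4483 kb. It had folds of 25.6 and 26.5 with aclarubicin and of 29.1 and 27.6 with daunorubicin, from 264, 278, 570 and 357 fragments. It was the isolated region with most fragments under daunorubicin, at 1.89 times the aclarubicin level after scaling. The second, chr17:18528811-18529397, showed the opposite, with folds of 27.8, 25.4, 21.9 and 20.1 and 257, 242, 97 and 95 fragments (ratio 0.436).

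The next pair were the first regions of their chromosomes. At chr9:11264-11545 aclarubicin gave folds of 26.8 and 28.0 and daunorubicin of 17.3 and 20.3 (ratio 0.451), and the peaks were 242 to 278 bp wide. At chr2:11360-11987 the folds were 20.7, 22, 18.8 and 21.2 (ratio 0.838). The fifth, chr1:121484733-121485330, borders a gap of 21052 kb and was stronger under daunorubicin, with folds of 17.9 and 16.9 against 22.6 and 20.6 (ratio 1.91). Gaps and empty stretches are named here only for holding no called region. Whether they, or the chromosome ends, hold sequence to which reads can be assigned was not tested, nor was its part in these peaks.

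Among isolated regions called under aclarubicin only, the highest ranked was chr7:35077467-35077932, with folds of 17.8 and 14.8 and 74 and 69 fragments. The next, chr14:45722230-45722719, was also the loneliest region of all, with 5521 kb free on its left and 4342 kb on its right. Its folds were 16.6 and 14.5, from 58 and 54 fragments. The third was chr6:127837669-127838228, with folds of 15.9 and 14.7. None of these 3 had a peak in either daunorubicin list, where they have no deposited value.

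Under daunorubicin only, the highest was chr6:17156371-17156723, with folds of 11.1 and 13.2 and 44 and 41 fragments. It was followed by chr3:93968372-93968702, with folds of 12.0 and 11.9 beside an empty stretch of 6949 kb, and by chr1:108324874-108325185, with folds of 9.44 and 12.6. The regions named were fainter than the aclarubicin-only regions named above, in fragments and in fold. They are, however, the highest of 23 set against the highest of 149. The medians of the classes lay close, with folds of 8.27 and 8.59 against 8.43 and 8.27, and 24 fragments in each library against 26 and 27.

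The ratio between the drugs was most extreme at the following regions, which were picked for it and are described only. Ratios use fragments scaled by the recovered depth, whereas the fragment numbers listed, also at the low end, are those before scaling. At chr1:227318907-227319601 daunorubicin gave 3.35 times the aclarubicin level, but its replicates differed, with 38 and 87 fragments against 21 and 18. At chr13:61047732-61048136, 2848 kb from its nearest neighbour, both replicates of a drug were closer, with 31 and 31 fragments under aclarubicin and 72 and 100 under daunorubicin (ratio 3.10). At chrX:108297404-108297823 the ratio of 1.95 came from aclarubicin replicate 1 alone, with 16 fragments against 83 in aclarubicin replicate 2 and 57 and 69 under daunorubicin, so the drugs overlapped.

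At the low end, chr5:118323636-118324541 had 98 and 109 fragments under aclarubicin and 28 and 25 under daunorubicin (ratio 0.290). At chr1:61515417-61515899 there were 156 and 162 against 45 and 46 (ratio 0.324). At chr17:35404871-35405341 there were 81 and 81 against 21 and 29 (ratio 0.345). The drugs did not overlap at any of these 3 regions.

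After the region on chromosome 14, the loneliest were faint peaks of a single library. The peak at chr4:134073017-134073380, 3789 kb from its neighbour, was called in daunorubicin replicate 1 with a fold of 6.65 and 21 fragments. That at chr18:38515447-38515712, at 3156 kb, was called in daunorubicin replicate 2 with a fold of 6.36 and 14 fragments, at the lowest background of its list.

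Where isolated regions were called in 2 libraries, the summits were close. For the 410 regions of both aclarubicin lists their median distance was 17 bp, for the 217 of both daunorubicin lists 20 bp, and for pairs across drugs (212 to 256 regions) 16 to 20 bp, and 83.6% to 88.5% of the summits lay within 50 bp. Other regions had 16 to 18 bp. The order of fold was kept less well. Across isolated regions called in both libraries, Spearman's rho of fold was 0.764 for the aclarubicin pair, 0.564 for the daunorubicin pair and 0.412 to 0.533 for pairs across drugs. Across other regions it was 0.911, 0.778 and 0.551 to 0.557. These describe regions that share libraries and depth.

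Drug ratios differed among chromosomes. On chromosome 8, with 58 isolated regions, the daunorubicin libraries together made 93.9 calls per 100 aclarubicin calls at isolated regions (33 and 33 against 25 and 37) and 56.6 at other regions. On chromosome 13 it was 80.5 and 52, and on chromosome 18, 77.1 and 46.8. Isolated regions had the higher value on 14 of 23 chromosomes and the lower on 9, among them chromosome 12 (48.2 against 62.9), 14 (26.1 against 59.0, 16 isolated regions) and 22 (22.2 against 53.1, 5 isolated regions). On chromosome 8 the aclarubicin counts lay between those of the daunorubicin replicates.

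Isolation also depends on which peaks are counted. Within each library's own list, 833 (7.83%) and 812 (7.58%) aclarubicin peaks and 908 (15.4%) and 953 (14.4%) daunorubicin peaks had no other peak of that list within 300 kb. The difference of -7.19 percentage points (aclarubicin minus daunorubicin; exact permutation p = 0.333) was -1.29 points with lists of equal length, where the shares were 14.7%, 14.7%, 15.4% and 16.5%. When the 2 lists of a drug were merged, 919 of 7648 daunorubicin regions were isolated, and for 477 of these a neighbour within 300 kb had been called under aclarubicin only. Among them were 217 regions called in all 4 libraries. In the other direction, 153 of 800 isolated aclarubicin regions had a neighbour called under daunorubicin only. With lists of equal length this order was turned round, at 205 of 933 and 340 of 874.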

How the data were processed

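The data are 4 lists of CTCF ChIP-seq peaks, called by the authors for each library separately. The submitters' processing notes name Bowtie2, Picard and bedtools and the build GRCh37 (hg19). Peak caller, threshold and control library are not given in the sources used here. The deposited columns hold the fold (a ratio over background), −log10 p, −log10 q, a score equal to the whole part of 10 times −log10 q in at least 99.9% of peaks, and the summit position. They are the authors' values.

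Fragments over the summit (k) and background (λ) were solved from the deposited fold, taken as (k + 1)/(λ + 1), and p, taken as the Poisson probability of more than k. This formula is an assumption. Solved k was whole within 0.02 in 100% of peaks of each list, and the solver was tested on simulated data. Relative depth is the lowest λ over the shortest peak width. Fragments were scaled by it.

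Peaks on chromosomes 1 to 22 and X were used (6 others were left out). Libraries were compared by exact two-sided permutation (2 against 2, smallest p 0.333), and isolated with other peaks by sign flips over 4 libraries (smallest p 0.13). Neither can pass 0.05. Merging and isolation matched bedtools 2.31.1. Named regions were the highest by mean fold percentile (5 called in all 4 libraries, 3 of each drug), the 3 highest and 3 lowest ratios, the 3 loneliest and the 2 on each side of the limit. Members, rules and lists were chosen with earlier results of these data known. Motif and GC shares, which had been planned, need a GRCh37 genome and were not run. Python 3.11.15, numpy 2.4.6, pandas 2.3.3, scipy 1.17.1 and matplotlib 3.10.9 were used.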

Additional observations from a re-analysis of the deposited data

How the results depend on the processing

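The number of isolated regions follows the distance set: 1245 at 200 kb, 376 at 500 kb and 97 at 1000 kb, of which 282, 74 and 13 were called in all libraries, 245, 71 and 20 under aclarubicin only, 36, 11 and 3 under daunorubicin only, and 443, 154 and 46 in 1 library. With lists of equal length, 75 were called under aclarubicin only and 113 under daunorubicin only, and the log2 difference in number per library reversed to -0.32. Counting only regions called in at least 2 libraries gave 289 called in all, 259 under aclarubicin only and 42 under daunorubicin only, and the count for 1 library has no value there. With each library left out in turn, 183 to 293 were called under aclarubicin only and 38 to 104 under daunorubicin only, since a single list then defines a class. The distance set leaves the merged regions unchanged, so the shares over all regions stay at 29.5%, 23.8%, 3.17% and 28.7% for the classes in the order given. For the other settings such shares are not given, and how far these counts follow those of all regions was not tested.

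The number per 100 other regions (log2 difference -0.08) reversed to 0.021 at 1000 kb, 0.022 at fold 5 and above and 0.053 without daunorubicin replicate 2, ranged from -0.19 to 0.053 with a library left out, and was -0.36 with lists of equal length. The strength gap of 12.5 percentile points reversed to -11.5 by −log10 p. The fragment difference at shared isolated regions reversed to -0.46 with medians set equal. For these reversals the cause was not tested, apart from the cut of the aclarubicin lists by construction.

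Recall of aclarubicin peaks under daunorubicin, at -12.5 points in strata of fold, was -15.8 at 500 kb, -25.5 at 1000 kb, -8.89 at fold 5 and above, -10.5 with regions of at least 2 libraries, -3.18 without strata and 6.56 in strata of −log10 p, and -11.5 to -14.4 with a library left out. Recall of daunorubicin peaks under aclarubicin, at -13.1 points, was -16.8, -26.8, -9.48, -5.70, -9.65 and -6.02 under the same settings in that order, -19.4 with lists of equal length, and -10.2 to -15.1 with a library left out.

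Of 250 values under alternatives, 7 reversed, 52 moved past their limit and 191 kept their direction (tested values) or stayed within the limit (counts). Sizes could still shift: the own-list isolation difference of -7.19 points was -1.29 with lists of equal length. Some of the 191 could not change by construction, namely those with replicate blocks and the isolated-minus-other fragment difference with medians set equal. Leaving out regions beside the longest gap of a chromosome or at its end, a setting chosen after seeing the data, left 745 isolated regions and a fragment difference of 0.23. Replicate numbers are not said to mark shared batches. Over shared regions the replicate differences of the drugs correlated at -0.08, and at -0.12 over the isolated ones. With the replicate block, the log2 difference in number stayed at 0.70 and that in fragments at 0.26, by construction (smallest p 0.5), and with crossed numbers the latter was also 0.26. The lists give no value where nothing was called, so signal below the threshold is unknown.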
